A study of Mus musculus with 6 samples.

Results

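Hmgcs1, Idi1, Fdps, Fdft1, Sqle and Cyp51 encode 6 enzymes of cholesterol synthesis, and Insig1 encodes a protein of the endoplasmic reticulum that restrains the pathway. Their expression was followed in Nkp46+ lymphocytes of gut, skin and spleen. Every probe whose symbol was one of these 7 genes was taken, which gave 13 of the 46643 probes on the array for 7 of its 33717 gene symbols, and none was listed under another symbol. None of the 7 takes up cholesterol, so genes of uptake and transport are described after them. The cells came from 12-week-old male mice of strain C57BL/6 that carried RAG-2-KO in every group and therefore make no T or B cells. The sort took cells with CD45, Nkp46 and a marker written NK11 but no CD3 (CD45+ CD3- Nkp46+ NK11+), and the submitters call them natural killer (NK) cells. There were 2 samples from the intestine (lamina propria), 2 from skin and 2 from spleen, each hybridised to 1 array. Nothing in the labels says whether the 2 samples of a tissue came from separate mice or from pools, so the p-values reflect the scatter of these particular samples, and that scatter may be technical only.

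Cholesterol is built from acetyl-CoA through mevalonate, isoprenoid pyrophosphates, squalene and lanosterol. Most genes of the pathway are switched on by the transcription factor SREBP-2, the product of Srebf2, which the escort protein SCAP carries out of the endoplasmic reticulum when membrane sterol is low. INSIG proteins hold that complex back when sterol is plentiful, and Insig1 is itself a target of SREBP-2. Lymphocytes, NK cells included, are known to raise this programme when they are activated and divide.

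Promoter windows from RefSeq (build GRCm38.p6), which run from 250 bases before to 50 bases after a gene's start, were at hand for 4 of the 7 genes, Hmgcs1, Idi1, Insig1 and Cyp51. The 3 with measurable signals are printed because their signals were higher in gut cells, with the 5′ end first on the strand of the gene. Hmgcs1 is chr13:119690101-119690400 on the plus strand, Insig1 is chr5:28071162-28071461 on the plus strand and Cyp51 is chr5:4104648-4104947 on the minus strand. Capitals mark every match, on either strand, to TCACNCCAC (a consensus of the sterol regulatory element that SREBP binds), CCAAT (the box bound by NF-Y) or GGGCGG (the box bound by Sp1).
Hmgcs1: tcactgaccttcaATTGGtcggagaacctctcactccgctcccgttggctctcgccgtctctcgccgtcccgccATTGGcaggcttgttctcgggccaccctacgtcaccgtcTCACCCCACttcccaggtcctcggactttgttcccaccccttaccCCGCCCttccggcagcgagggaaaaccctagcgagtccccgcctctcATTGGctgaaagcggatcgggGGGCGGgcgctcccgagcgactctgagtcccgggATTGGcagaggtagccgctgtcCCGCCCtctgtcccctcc
Insig1: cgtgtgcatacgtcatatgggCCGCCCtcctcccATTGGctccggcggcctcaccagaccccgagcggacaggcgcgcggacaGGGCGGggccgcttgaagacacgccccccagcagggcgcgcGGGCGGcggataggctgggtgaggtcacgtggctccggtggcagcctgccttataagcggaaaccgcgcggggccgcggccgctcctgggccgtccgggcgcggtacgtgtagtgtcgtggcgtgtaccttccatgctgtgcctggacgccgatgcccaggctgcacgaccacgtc
Cyp51: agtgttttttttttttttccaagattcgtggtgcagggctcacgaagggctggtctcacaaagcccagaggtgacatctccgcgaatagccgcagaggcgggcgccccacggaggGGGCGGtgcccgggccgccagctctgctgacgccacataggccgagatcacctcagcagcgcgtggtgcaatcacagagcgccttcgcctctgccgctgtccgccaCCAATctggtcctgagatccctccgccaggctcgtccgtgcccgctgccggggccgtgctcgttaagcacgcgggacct
The TCACNCCAC motif occurred in 1 of the 4 windows, that of Hmgcs1, where TCACCCCAC begins at -137 from the start, and in 1.24% of the 32851 windows of the table. CCAAT occurred in 4 of 4 windows against 37.4% of all, and GGGCGG in 4 of 4 against 35.7%. The Hmgcs1 window held 4 CCAAT and 3 GGGCGG matches, the Insig1 window 1 and 3, and the Cyp51 window 1 and 1, with no base shared between 2 matches in the printed windows. A match is a string of letters and not a shown binding site, and no match says only that these letters are not in this window.

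A probe's signal is its background-subtracted brightness, scaled so that each array has a mean of 83.1, and a probe was called detected at a detection p under 0.01. Of all probes, 35.5% and 32.8% were detected on the intestine arrays, 32.6% and 35.3% on the skin arrays and 39.2% and 39.7% on the spleen arrays. Ncr1, the gene of Nkp46, and the NK receptor gene Klrb1c were detected on all 6 arrays, but both were dimmest in intestine. Ncr1 gave 10.8 and 14.7 in intestine, 33.1 and 32.4 in skin, and 88.2 and 52.9 in spleen. For Klrb1c the signals were 978 and 1073, 2125 and 2003, and 2311 and 2071 in the same tissues. Of 8 T cell genes, 4 were detected on every array (Cd3d, Cd3g, Cd28 and Cd8b1) and Cd3e was detected on none, and the 8 summed to 845 and 1011 in intestine, 744 and 827 in skin, and 828 and 719 in spleen. Of the 4 detected, only Cd3g was brighter on both intestine arrays than on all others. It gave 312 and 597 in intestine, 54.6 and 59.4 in skin, and 109 and 81.4 in spleen. Cd8b1 went the other way, with 134 and 148, 361 and 373, and 269 and 257 in the same tissues. Cd3d gave 123 and 113, 108 and 137, and 203 and 153, and Cd28 gave 275 and 153, 219 and 252, and 247 and 225. Before scaling, the mean signals were 82.7 and 50.9 in intestine, 43.7 and 53.4 in skin, and 137 and 131 in spleen, so that comparisons between tissues rest on the scaling. The summed signal of 12 NK and innate lymphoid genes was 14128 and 16394 in intestine, 23380 and 24739 in skin, and 25003 and 25696 in spleen. That of 7 erythroid genes was 1116 and 697 in intestine and 1035 and 786 in skin, against 11705 and 17613 in spleen, and 12 genes of macrophages, monocytes and dendritic cells summed to 62.0 to 75.7, 76.6 to 105 and 172 to 207 in the same tissues. Of 12 gut epithelial markers 5, 5, 4, 5, 3 and 5 were detected on intestine arrays 1 and 2, skin arrays 1 and 2 and spleen arrays 1 and 2, with sums of 74.6 to 113, 122 to 141 and 95.2 to 117, while Epcam, Fabp1 and Fabp2 were detected on none. The part of these differences in the results below was not tested.

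All 5 genes that could be tested gave more signal in gut cells than in spleen cells. Differences are between means of log2(signal + 16) after quantile normalization, with the standard error (SE) of a limma fit over all 6 arrays, and fold changes on this scale understate the change of dim genes. P-values were adjusted by Benjamini-Hochberg over 13455 genes, with 0.05 as the threshold. In such bulk samples, more RNA per cell and more cells of a kind that expresses the gene cannot be told apart.

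Hmgcs1 encodes the cytosolic HMG-CoA synthase, which joins acetyl-CoA to acetoacetyl-CoA on the way to mevalonate. Its only probe was detected on every array, with signals of 869 and 1062 in intestine, 461 and 470 in skin, and 403 and 371 in spleen. Both intestine arrays stood above both skin arrays, and these above both spleen arrays. The log2 difference was 1.49 ± 0.15 (SE) for intestine against spleen (2.80-fold, limma adjusted p = 4.38e-05), 1.03 ± 0.15 for intestine against skin (2.04-fold, adjusted p = 0.000551) and 0.46 ± 0.15 for skin against spleen, which did not pass (adjusted p = 0.0535). With the slide, read from a code in the file headers, as a block, the last of these passed (limma adjusted p = 0.0451). Skin against spleen also passed with median scaling (0.56, adjusted p = 0.0198) and with an offset of 50 (0.43, adjusted p = 0.0376). Among probes detected on all 6 arrays it passed as well (adjusted p = 0.0413). In 9 of 15 alternatives it did not pass, and over all of them the log2 difference ran from 0.26 to 0.56. In the unscaled signals the lower intestine array, at 650, lay below the higher spleen array, at 665.

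Idi1, the isomerase that turns isopentenyl pyrophosphate into its allylic isomer, was not measurable. Its only probe gave 4.36 and 3.48 in intestine, 8.71 and 1.30 in skin, and 2.52 and 1.84 in spleen, and was detected on none of the 6 arrays. The groups overlapped near background, so these arrays neither show nor exclude a difference in Idi1. With no detection filter its log2 difference was 0.11 ± 0.17 for intestine against spleen (limma adjusted p = 0.774).

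Fdps encodes the synthase of farnesyl pyrophosphate, from which both squalene and the lipid anchors of prenylated proteins are made. The probe tested for it gave 378 and 391 in intestine, 161 and 120 in skin, and 96.8 and 82.3 in spleen. The tissues did not overlap, and skin lay between the others. Intestine exceeded spleen by 2.26 ± 0.16 on the log2 scale (4.80-fold, adjusted p = 4.29e-06) and skin by 1.44 ± 0.16 (2.71-fold, adjusted p = 9.67e-05), and skin exceeded spleen by 0.82 ± 0.16 (1.77-fold, adjusted p = 0.00892). The other Fdps probe was detected on 2 of the 6 arrays, at signals of 4.08 to 10.5 over all of them, and was not tested.

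Fdft1, the squalene synthase that commits farnesyl pyrophosphate to sterols, had 1 probe with signals of 0.585 and -0.808 in intestine, -5.90 and 0.368 in skin, and -1.34 and -3.12 in spleen. It was detected on no array, and the groups overlapped around 0. With no detection filter the log2 difference was 0.41 ± 0.19 for intestine against spleen (limma adjusted p = 0.187). The step between Fdps and Sqle is therefore unmeasured here.

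Sqle encodes squalene epoxidase, which adds oxygen to squalene in the first oxygenation of the sterol branch. The tested probe gave 155 and 194 in intestine, 36.9 and 18.5 in skin, and 8.51 and 3.50 in spleen, where it was detected on 1 of 2 arrays. The 3 tissues did not overlap, and the replicates of skin and of spleen lay farther apart, relative to their level, than those of intestine. The log2 difference was 3.26 ± 0.21 for intestine against spleen (9.61-fold, adjusted p = 2.3e-06), 2.29 ± 0.21 for intestine against skin (4.89-fold, adjusted p = 2.73e-05) and 0.97 ± 0.21 for skin against spleen (1.96-fold, adjusted p = 0.0125). A second Sqle probe gave 34.4 and 42.2 in intestine, where alone it was detected, against 3.09 and 3.42 in skin and 0.642 and 1.04 in spleen. Because it passed the filter through intestine alone, the direction of its difference there was fixed by the filter. Taken against the lowest signals detected on the arrays, or the probe's own value where that is higher, it was at least 2.95-fold higher in intestine than in spleen and at least 2.62-fold higher than in skin. It did not repeat the difference of skin against spleen (0.14 ± 0.14, limma adjusted p = 0.487). The third Sqle probe was detected on no array.

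Cyp51 encodes the lanosterol demethylase, the first oxidative step after lanosterol. Its tested probe gave 494 and 482 in intestine, 74.7 and 71.2 in skin, and 37.5 and 40.6 in spleen. The replicates of each tissue lay close together, and no tissue overlapped another. Of the 5 tested genes it had the largest differences, at 3.48 ± 0.13 for intestine against spleen (11.1-fold, adjusted p = 1.43e-07), 2.54 ± 0.13 for intestine against skin (5.83-fold, adjusted p = 7.52e-07) and, after Sqle, 0.93 ± 0.13 for skin against spleen (1.91-fold, adjusted p = 0.00195). The other Cyp51 probe gave 117 and 94.5 in intestine, 6.69 and 14.6 in skin, and 12.0 and 7.57 in spleen. It was higher in intestine than in spleen (2.42 ± 0.19, adjusted p = 7.25e-06) and than in skin (2.42 ± 0.19, adjusted p = 8.91e-06). Skin and spleen overlapped on it, with a log2 difference of -0.0031 ± 0.19 (adjusted p = 0.992), so the skin excess of Cyp51 rests on 1 of 2 probes.

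Insig1 was the tested gene whose skin signal was not above that of spleen. The tested probe gave 60.9 and 32.3 in intestine, 7.77 and 5.50 in skin, where it was not well above background on either array, and 10.9 and 4.50 in spleen. Both intestine arrays stood above the other 4, while skin and spleen overlapped. The log2 difference was 1.55 ± 0.21 for intestine against spleen (2.92-fold, adjusted p = 0.00027) and 1.67 ± 0.21 for intestine against skin (at least 2.93-fold, adjusted p = 0.000206). Skin against spleen gave -0.13 ± 0.21 (adjusted p = 0.685), a sign that turned in some alternative settings, where values ran from -0.30 to 0.04. A second Insig1 probe gave 40.1 and 19.9 in intestine, 9.97 and -0.766 in skin, and 3.91 and 4.35 in spleen. It too passed the filter through intestine alone, which fixed the direction of its excess there, at least 2.39-fold over spleen. The third Insig1 probe was detected on no array.

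**Figure D1:**
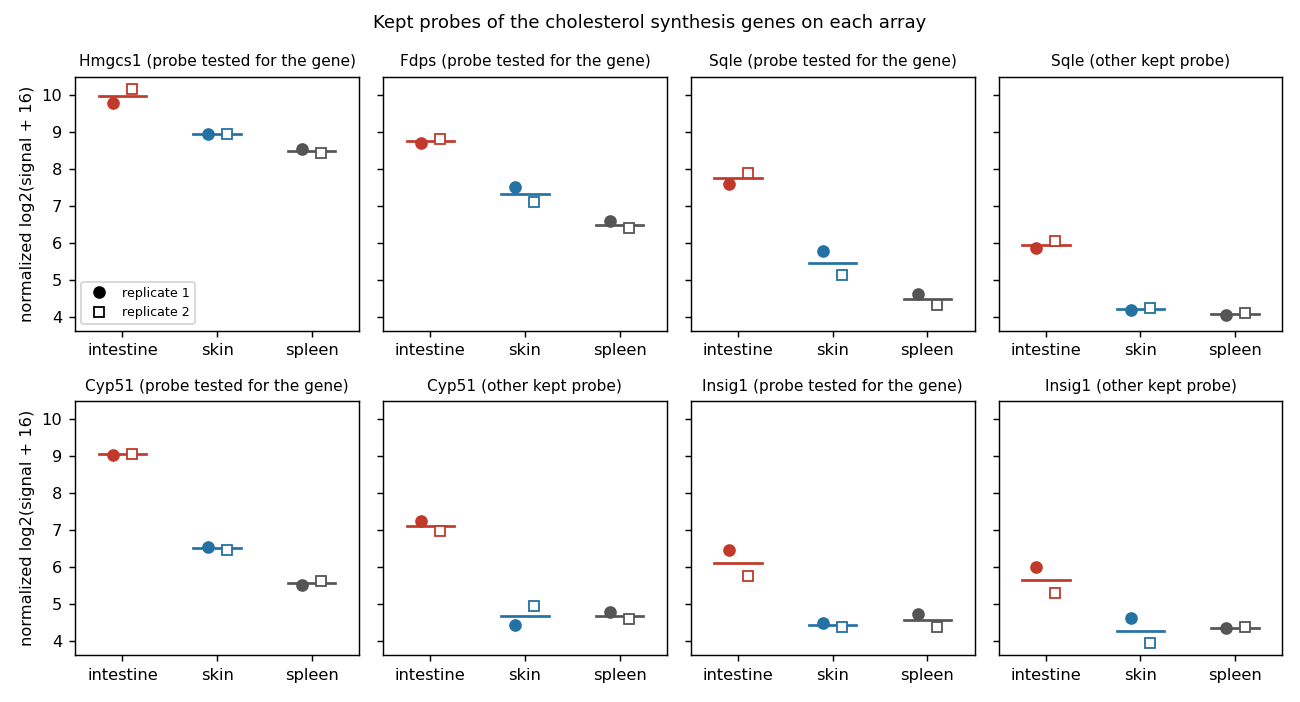
Normalized log2(signal + 16) of the 8 kept probes of the cholesterol synthesis genes, 1 panel a probe, with intestine, skin and spleen from left to right, filled circles for replicate 1, open squares for replicate 2 and a bar for the mean of 2 arrays. Intestine lies above skin and spleen in all 8 panels. The other kept probes of Sqle and Insig1 passed the filter through intestine alone, which fixed this for their panels. Skin lies apart from spleen on the tested probes of Hmgcs1, Fdps, Sqle and Cyp51 but not on those of Insig1.

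Of the 7 genes, 5 were tested and all 5 were higher in intestine than in spleen, where 21.0% of all tested genes were called higher. The same 5 were higher in intestine than in skin, against 16.4% of all tested genes. In skin against spleen 3 of 5 were higher, Fdps, Sqle and Cyp51, against 13.1% of all tested genes, and none was called lower in any comparison, against 28.3% of all tested genes in intestine against spleen, 22.9% in intestine against skin and 11.4% in skin against spleen. The 3 comparisons share arrays, so their counts do not add to one another. The median log2 difference of the 5 genes was 2.26 for intestine against spleen, 1.67 for intestine against skin and 0.82 for skin against spleen, beside medians over all tested genes of -0.04, -0.08 and 0.00. Ranked by the log2 difference of intestine over spleen among 13455 genes, Cyp51 was at place 47, Sqle 55, Fdps 190, Insig1 443 and Hmgcs1 486. The 7 genes, like the lists below, were chosen with earlier results of these data known. These counts, shares and ranks therefore describe the genes and are no independent evidence.

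**Figure D2:**
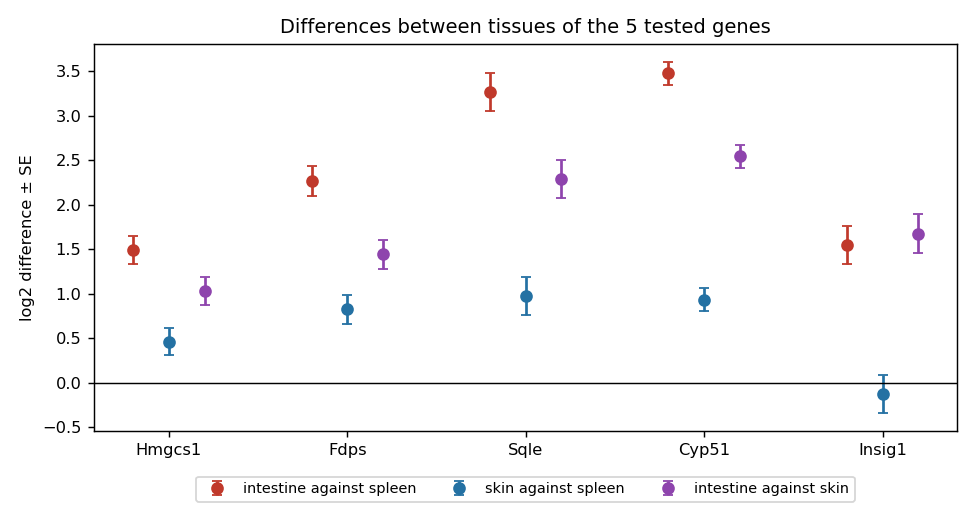
Log2 differences of the 5 tested genes between tissues, with bars of ± 1 SE from the limma fit, in red for intestine against spleen, blue for skin against spleen and purple for intestine against skin. Cyp51 and Sqle have the largest differences from intestine to spleen, at 3.48 and 3.26, and Insig1 is the gene whose skin against spleen value lies below 0.

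The skin against spleen differences were the least firm. Without skin replicate 1, spleen replicate 1 or spleen replicate 2, the number of genes higher in skin fell to 1, Cyp51. In these 3 fits the log2 difference was 0.66, 1.13 and 0.82 for Sqle, and 0.62, 0.92 and 0.73 for Fdps. Over all genes tested, fewer calls were made in these fits as well. Cyp51 kept its call in 15 of 15 alternatives, with differences of 0.61 to 0.98. None of these used its other probe, on which skin and spleen overlapped. In the unscaled signals both skin arrays lay below both spleen arrays for Hmgcs1, Fdps, Cyp51 and Insig1, so the excess of Fdps and Cyp51 in skin exists only after arrays are scaled to one another. The unscaled signal of Sqle was higher in skin than in spleen on each slide, although the tissues overlapped. All 5 calls of intestine against spleen and of intestine against skin held in every alternative in which the gene was tested. Within each slide, which held 1 replicate of every tissue, the 5 differences of intestine against spleen were 1.24 to 3.51 on slide 1 and 1.38 to 3.56 on slide 2.

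The other enzymes of sterol synthesis followed in part. Of 16 in the list, 15 were tested, and in intestine against spleen 7 were higher, 3 lower (1 with median scaling) and 5 did not pass, beside 21.0% higher and 28.3% lower over all genes tested, with a median log2 difference of 0.30 against -0.04 over all genes tested. Msmo1, the methylsterol monooxygenase that acts after Cyp51, gave 195 and 291 in intestine, 89.3 and 92.1 in skin, and 127 and 105 in spleen. Its intestine arrays stood above the rest, by 1.34 ± 0.18 over spleen (limma adjusted p = 0.000219). Lss, the lanosterol synthase between Sqle and Cyp51, was higher by 1.30 ± 0.21 (adjusted p = 0.000758) and mevalonate kinase, Mvk, by 1.02 ± 0.16 (adjusted p = 0.000622).

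The 3 enzymes lower in intestine than in spleen were Lbr, the lamin B receptor with sterol reductase activity (-0.59 ± 0.13), the sterol isomerase Ebp (-0.55 ± 0.13) and the sterol desaturase Sc5d (-0.45 ± 0.16). Sc5d was detected in spleen alone, at 15.3 and 10.1, and was at least 1.19-fold lower in intestine. It passed the filter through spleen alone, and 1 of the 7 higher enzymes through intestine alone, which fixed the direction of both. In intestine against skin 7 of 15 were higher and 2 lower (16.4% and 22.9% over all genes tested). The filter again fixed the direction of 1 of the 7. Among the higher were Msmo1 (1.38 ± 0.18), Mvk (1.14 ± 0.16) and Lss (0.74 ± 0.21), with Lbr (-0.70 ± 0.13) and Ebp (-0.66 ± 0.13) lower. In skin against spleen none of the 15 was higher, 1 with median scaling (13.1% over all genes tested). The 1 lower was Sc5d, its direction again fixed by the filter (11.4% over all genes tested). The probes of Lbr disagreed. Its other, dimmer kept probe gave -0.91 for intestine against spleen, 0.11 for intestine against skin and -1.02 for skin against spleen. The lower Lbr in intestine than in skin therefore rests on 1 of 2 probes.

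**Figure D3:**
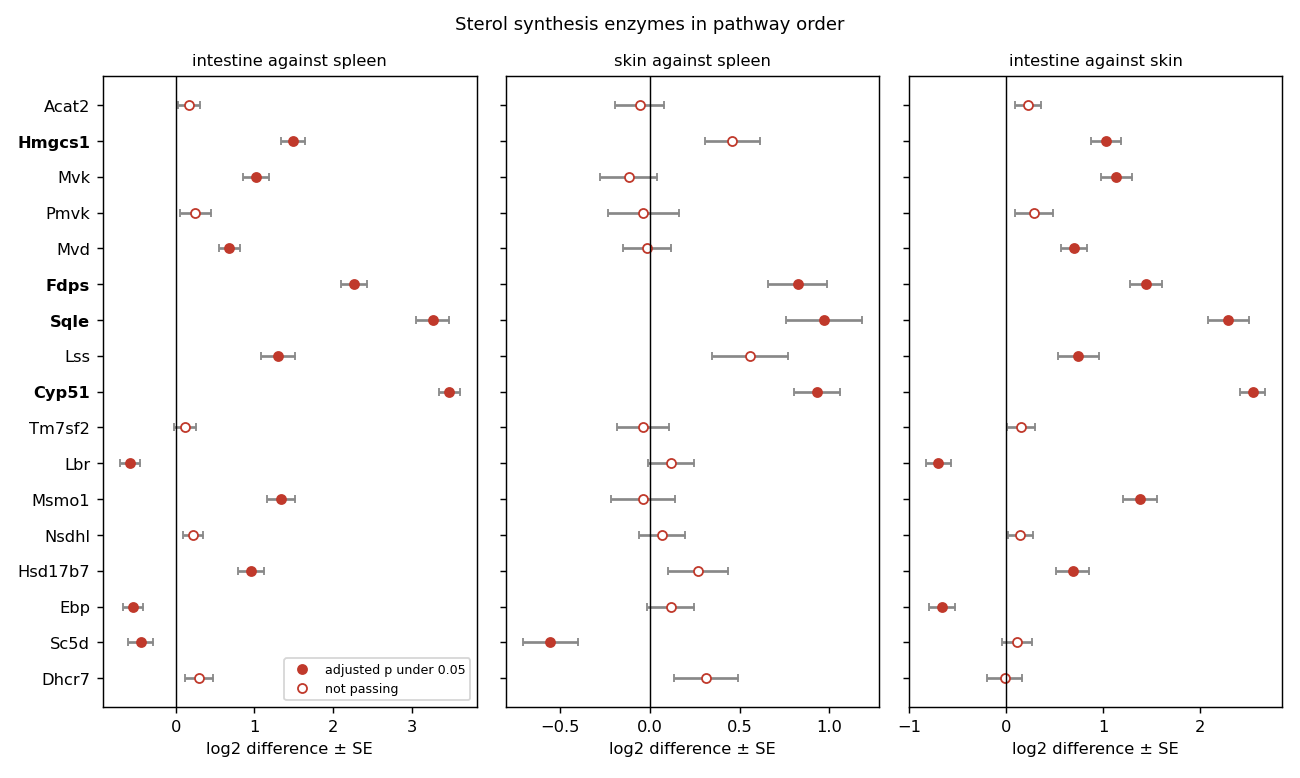
Log2 differences ± SE of sterol synthesis enzymes, in pathway order from top to bottom, in 3 panels with horizontal scales of their own for intestine against spleen, skin against spleen and intestine against skin, with filled points where the adjusted p was under 0.05 and the 4 tested enzymes of the 7 genes in bold. The middle steps Fdps, Sqle and Cyp51 have the largest differences from intestine to spleen, at 2.26, 3.26 and 3.48, and Lbr, Ebp and Sc5d lie below 0.

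Srebf2, the gene of the factor that drives the pathway, had the largest difference from intestine to spleen among the tested control genes. It gave 483 and 415 in intestine, 119 and 87.6 in skin, and 60.4 and 65.7 in spleen. The tissues did not overlap, in the same order as for Fdps, Sqle and Cyp51. Srebf2 was 2.88 ± 0.16 higher in intestine than in spleen (7.38-fold, limma adjusted p = 9.48e-07) and 2.04 ± 0.16 higher than in skin (adjusted p = 9.89e-06), and its other kept probe gave 2.93 and 1.91. In skin it was 0.84 ± 0.16 higher than in spleen (adjusted p = 0.0078). That call was lost without skin replicate 1, spleen replicate 1 or spleen replicate 2, where the log2 difference was 0.64, 0.79 and 0.90.

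Of 14 genes that control SREBP or answer to sterol, Srebf2 included, 13 were tested, and in intestine against spleen 2 were higher and 4 lower, near the 21.0% and 28.3% of all genes tested, with a median log2 difference of -0.27 against -0.04 over all genes tested. Nr1h2, the liver X receptor beta, was the other higher one (1.01 ± 0.13). Insig2, the close relative of Insig1, went the other way, with 31.2 and 37.5 in intestine, 60.2 and 70.4 in skin, and 107 and 115 in spleen. Its arrays fell into 3 separate levels with spleen highest, and the difference of intestine from spleen was -0.92 ± 0.14 (adjusted p = 0.000445). Erlin2, which encodes a protein of cholesterol-rich patches of the endoplasmic reticulum, was lower as well (-0.90 ± 0.17). Scap gave -0.07 ± 0.15 and did not pass (adjusted p = 0.696), although with the deposited scaling alone it was lower in intestine (-0.50, adjusted p = 0.0141). Srebf1, the gene of the related factor of fatty acid synthesis, was detected on no array. In skin against spleen 2 were higher and 2 lower (13.1% and 11.4% over all genes tested), and in intestine against skin 2 and 2 (16.4% and 22.9%).

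Among 17 genes of uptake and transport inside the cell, 13 were tested, of which 5 were higher and 4 lower in intestine than in spleen, 3 and 2 in skin than in spleen, and 4 and 4 in intestine than in skin. Over all genes tested the shares higher and lower were 21.0% and 28.3%, 13.1% and 11.4%, and 16.4% and 22.9% in the same comparisons. Mylip, 1 of the lower genes in intestine and in skin against spleen, passed the filter through spleen alone, which fixed its direction. The median log2 difference of intestine from spleen over these 13 was -0.15. Stard4, a soluble sterol carrier, gave 545 and 595 in intestine, 246 and 259 in skin, and 209 and 194 in spleen. It was 1.71 ± 0.13 higher in intestine than in spleen, and its second probe gave 1.66. Gramd1a, which moves sterol from the plasma membrane to the endoplasmic reticulum, was 1.23 ± 0.13 higher. Npc1, which exports cholesterol from lysosomes, gave 416 and 373 in intestine, 1112 and 1145 in skin, and 1264 and 1085 in spleen. Only the intestine arrays stood low on this probe (-1.37 ± 0.14 against spleen, limma adjusted p = 3.5e-05), and 3 dimmer Npc1 probes gave -0.22 to 0.03. Osbp, a sterol exchanger at the Golgi, was lower by 1.16 in intestine than in spleen (log2 difference -1.16 ± 0.16).

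**Figure D4:**
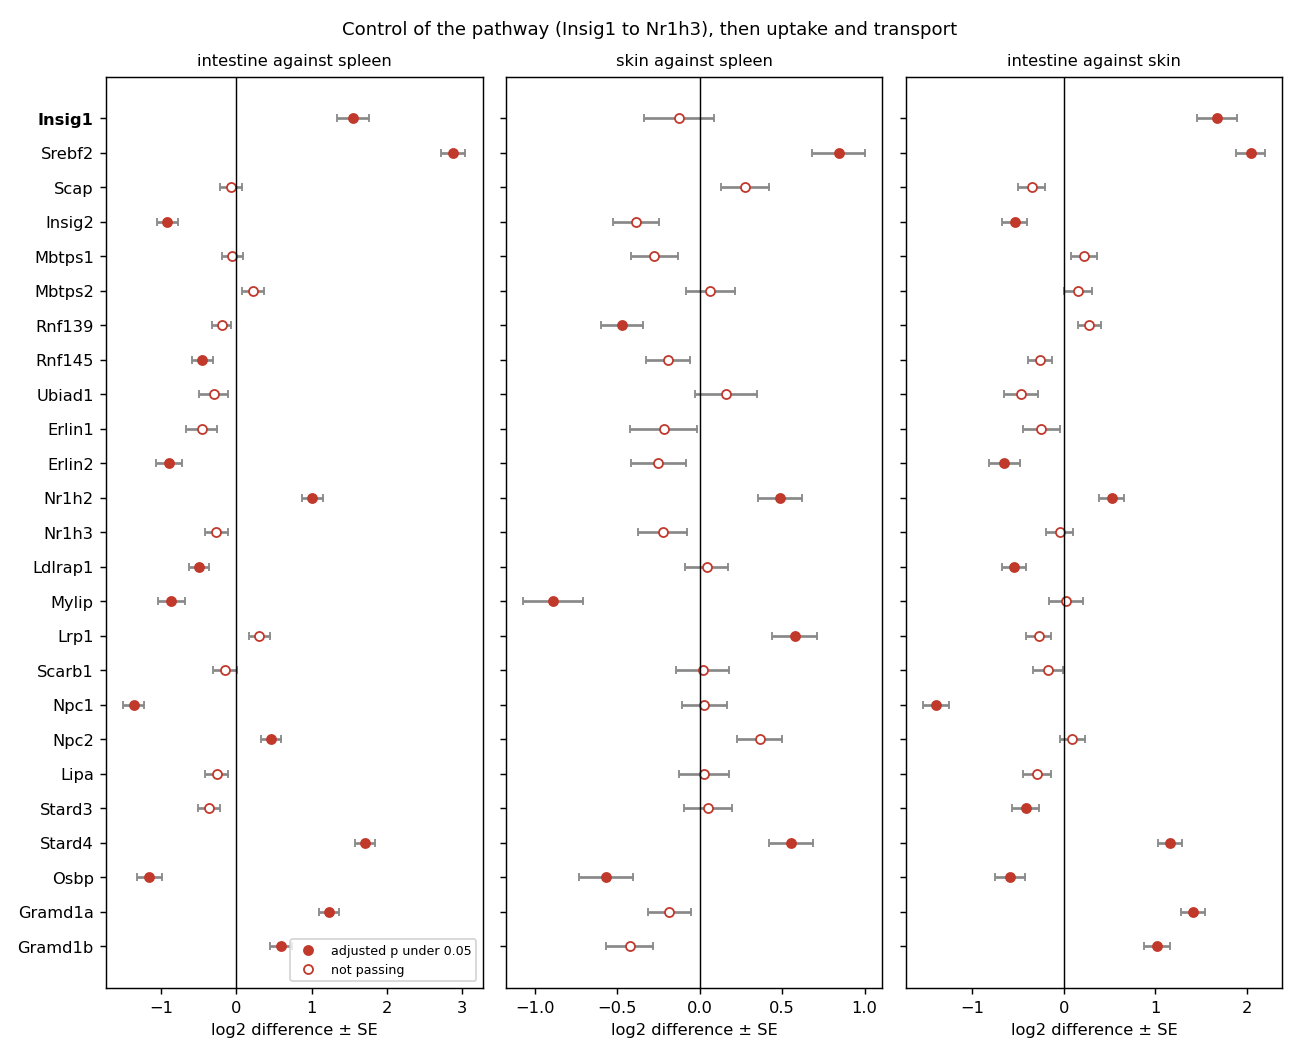
Log2 differences ± SE of genes that control the pathway, Insig1 to Nr1h3, and below them of uptake and transport genes, in 3 panels with horizontal scales of their own for intestine against spleen, skin against spleen and intestine against skin, with filled points where the adjusted p was under 0.05 and Insig1 in bold. Srebf2 is at 2.88 for intestine against spleen, with Insig2 at -0.92 and Npc1 at -1.37 on the other side of 0.

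Few genes of cholesterol export and storage were measurable, with 5 of 13 tested. In intestine against spleen none was higher and 2 were lower, Abcg1 and Soat1, beside 21.0% and 28.3% over all genes tested, with a median log2 difference of -0.42 over the 5. In skin against spleen Abcg1 was lower, and in intestine against skin Soat2 was higher (0.54 ± 0.15, limma adjusted p = 0.0152). Abca1, an exporter that loads lipid onto apolipoprotein, was detected on no array. Abcg1, which exports cholesterol to lipoprotein particles, gave 466 and 379 in intestine, 448 and 464 in skin, and 711 and 765 in spleen. Spleen stood above both other tissues (-0.59 ± 0.14 for intestine against spleen, limma adjusted p = 0.00554, and -0.52 ± 0.14 for skin against spleen, adjusted p = 0.0231), but the second Abcg1 probe gave 0.24 and 0.17. The probes of Soat1, which esterifies cholesterol for storage, disagreed as well, with -0.47 for intestine against spleen on the tested probe (adjusted p = 0.0212), -0.38 on another kept probe and 2.25 on the third, which gave 118 and 145 in intestine, 7.21 and 5.43 in skin, and 21.3 and 24.6 in spleen.

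Hmgcs1, Fdps, Sqle and Cyp51 shared the order of intestine over skin over spleen in their mean log2 values, and Insig1 did not. The sizes of the differences varied among the 5 genes. As a measure of likeness, each gene's 6 normalized log2 values were centred on their mean, and the root mean square difference between 2 profiles was taken. The values were not scaled, so 2 genes with the same order of tissues lie far apart where their differences are unlike in size. Sqle and Cyp51 were nearest to each other, at 0.235, and Hmgcs1 and Cyp51 farthest apart, at 0.856. Among all other tested genes, the nearest to Sqle was 7330423F06Rik (0.172), and those nearest to Cyp51 were Kdm2b (0.059) and 4732435K05Rik (0.107). Fdps was nearest to Mthfd2 (0.095), a mitochondrial folate enzyme, and Ppp1r16b (0.168), Hmgcs1 to LOC384609 (0.082) and Unc45a (0.089), and Insig1 to Clic4 (0.119) and Utf1 (0.125). These values rest on 6 arrays in 3 tissues and on the same normalization for every gene.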

How the data were processed

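Expression was measured on 6 Illumina mouse BeadChip arrays. The deposited value is the average bead intensity of a probe, per the file headers. BeadStudio 1.5.1.3 is the tool listed, per the submitters' processing notes. The values show that the authors had subtracted background (30.7% to 32.7% of probes lie below 0) and scaled each array to 1 mean, and a second deposited table holds them unscaled. These 2 steps are read from the values, since no label describes them, and the way the software computed the deposited detection p-value is likewise not stated.

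Signals were used as log2(signal + 16) after quantile normalization. A probe was kept if some tissue had it detected (p under 0.01) on both of its arrays, 18583 in all, and the brightest stood for each of 13455 genes. Tissues were compared with lmFit and eBayes of limma 3.58.1 in R 4.3.3 on all 6 arrays, with 3 residual degrees of freedom, and the procedure was tested on simulated data. All probes were also tested singly over the kept probes. A gene detected on no array of a tissue has a bound in place of a fold. Of all probes, 12966 carried an older symbol that was translated through the RefSeq gene table and 11604 one that it does not hold. Probe sequences were not used here. Some genes of the lists are counted but not reported here by name or value. The number of arrays limits the precision.

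The file headers carry 1 code for replicate 1 of every tissue and another for replicate 2. The codes are taken here as slides 1 and 2, although no label calls them so. Deviations of same-numbered samples from their tissue means correlated at 0.114 (intestine and skin), 0.157 (intestine and spleen) and 0.21 (skin and spleen). Samples were paired by number only in the block alternative and in the differences within slides, not in the main fit. The 7 genes and the lists were chosen with earlier results of these data known. The genes named are these 7, fixed key genes of the pathway, up to 4 passing genes per list and comparison by size, and the 2 nearest profiles of each. Other values of Soat1, genes named only as undetected and those behind counts of 5 or fewer were chosen after their values were seen. The alternatives were other scalings, offset, background and filters, a fit over all kept probes, the slide as a block, and leaving out each replicate. None was set to switch a gene to its other probe.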

Additional observations from a re-analysis of the deposited data

How the results depend on the processing

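With 15 alternatives, the counts of the 5 tested genes higher in intestine stayed at 5 against spleen and against skin, except that with probes detected on all 6 arrays only 3 genes could be tested and the counts were 3 and 3. In skin against spleen the 3 higher genes became 4 with the slide as a replicate block, with median scaling and with an offset of 50, and ranged from 1 to 4 when a replicate was left out. The block changed no call of the 7 genes apart from Hmgcs1 in skin against spleen (adjusted p = 0.0451).

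Of the other sterol synthesis genes, 4 instead of 7 were higher in intestine than in spleen, and 4 instead of 7 higher than in skin, with probes detected on all 6 arrays. The 3 lower in intestine than in spleen became 1 with median scaling and 1 to 3 when a replicate was left out. In skin against spleen 1 was higher with median scaling, and 0 to 1 when a replicate was left out. The 1 lower there became 2 with the deposited scaling alone, 0 with median scaling, an offset of 50, probes detected on all 6 arrays or no filter, and 0 to 2 when a replicate was left out. The cause was not tested. Acly was lower in intestine than in spleen in the main fit (-0.47, limma adjusted p = 0.0225). It turned sign with median scaling (0.014, adjusted p = 0.941) and lost its call with no filter (adjusted p = 0.0554). Without intestine replicate 1, spleen replicate 1 or spleen replicate 2 the difference was -0.33, -0.48 and -0.46. Over 66 other genes of the pathway lists, 53 of 978 values lost a call but kept their sign in intestine against spleen, and 23 gained one. The 1 reversed value there was that of Acly with median scaling, which lost its call too. In skin against spleen 81 values lost a call and 42 gained one, and in intestine against skin 32 and 11 did.

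Of 13455 genes, 6629, 3299 and 5282 were called in intestine against spleen, skin against spleen and intestine against skin. The first was 4008 and 4040 without spleen replicate 1 and 2. The second was 1826 with no filter, 994 and 2050 without skin replicate 1 and 2, and 464 and 452 without spleen replicate 1 and 2. Of these calls 42.6%, 53.4% and 41.8% were higher, while 57.8%, 71.0% and 47.8% were with median scaling and 25.7%, 36.1% and 30.4% with the deposited scaling alone. These scalings set the median of all genes for intestine against spleen to 0.10 and -0.25.

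Signal over background was lowest on the skin and intestine arrays, which limits what dim probes such as those of Idi1, Fdft1 and Insig1 can show.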

Other observations

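Of 8 tested genes of the isoprenoid branch, in intestine against spleen 2 were higher and 2 lower among 11 listed, near the 21.0% and 28.3% of all genes tested, with Rabggtb, a subunit of the transferase that prenylates Rab proteins, at 1.33 ± 0.13 (658 and 644 in intestine, 288 and 297 in skin, 307 and 294 in spleen) and Fnta, the shared subunit of the farnesyl and geranylgeranyl transferases, at -1.39 ± 0.13 (129 and 140 in intestine, 303 and 318 in skin, 461 and 506 in spleen). Limma adjusted p-values were 2.62e-05 and 2.71e-05.

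Of 12 tested genes of fatty acid synthesis, which SREBP proteins also drive, 3 were higher and 6 lower in intestine than in spleen, beside 21.0% and 28.3% of all genes tested, and 1 of the 6, Scd1, passed the filter through spleen alone, which fixed its direction. Elovl5, an elongase of polyunsaturated fatty acids, gave 2543 and 2581 in intestine, 711 and 710 in skin, and 827 and 901 in spleen, a log2 difference of 1.62 ± 0.13 for intestine against spleen (limma adjusted p = 1.06e-05). The desaturase Fads1 was higher as well (1.54 ± 0.19). Scd2, another desaturase, gave 191 and 189 in intestine, 723 and 611 in skin, and 1102 and 967 in spleen, and was lower in intestine than in spleen (-2.10 ± 0.14, adjusted p = 2.82e-06).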
